A study of Mus musculus with 58 samples.

Results

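The Nodal and BMP feedback genes are 10 genes that respond to signalling by the TGFβ family, several of which in turn limit or extend it. In the mouse embryonic stem (mES) cells studied here they were Id1, Id2, Id3, Smad6, Smad7, Lefty1, Lefty2, Nodal, Bambi and Skil. They were taken by symbol, each mapped to its Ensembl gene, and were 10 of the 20177 genes in the count tables. The rule uses symbols alone, and the genes were chosen with earlier results of these data known. All samples came from E14 mES cells of strain 129/Ola, kept in serum with LIF unless stated, in which a chromatin protein needed for H3K4 methylation carries a tag for induced degradation. In the DPY30–mAID line, a homozygous clone that also expresses OsTIR1, auxin removes DPY30. In the RBBP5–FKBP line, a biallelic clone, dTAG-13 removes RBBP5. The remaining line, DPY30–mAID Kdm5a/b dKO (dKO), additionally lacks the H3K4 demethylase genes Kdm5a and Kdm5b. The study derived 2 such clones, and which clone gave which dKO library is not given in the sources used here. SLAM-seq libraries were made at 0, 2, 8 and 24 h of auxin or dTAG-13 in the first 2 lines (n = 3 at each time) and at 0, 2, 4, 8, 24 and 48 h of auxin in the dKO line (n = 2). Cells were labelled with 100 µM 4-thiouridine (4SU) for 60 min before each harvest. Quant-seq libraries were made from DPY30–mAID cells in 1 µM retinoic acid (RA) without LIF, with DMSO at 0 h and with DMSO or auxin at 8 h and on days 1, 2, 4 and 6 (n = 2).

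Signals of this family run along 2 branches that share SMAD4. Nodal binds activin receptors together with the co-receptor Cripto (Tdgf1) and activates SMAD2 and SMAD3, whereas BMPs bind BMP receptors and activate SMAD1, SMAD5 and SMAD9. Serum is a source of BMP activity, and Id genes are the classical immediate targets of BMP in mES cells, where their products block basic helix–loop–helix factors that drive neural differentiation. Nodal induces its own gene and the genes of its secreted antagonists, Lefty1 and Lefty2. SMAD6 and SMAD7 are inhibitory SMADs that act on activated receptors, BAMBI is a receptor without a kinase domain that blocks signalling at the membrane, and SKIL (SnoN) is a nuclear co-repressor of SMAD targets. SLAM-seq tells RNA made during the labelling, whose reads carry T-to-C conversions, from the RNA already present.

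Promoter sequence was taken from RefSeq (GRCm38.p6), in a table that held 4 of the 10 genes (Id2, Id3, Smad6 and Nodal). The windows below are shown because they hold letters known from SMAD-bound elements, which are printed in capitals; all are 5′ to 3′ on the strand of the gene.
Smad6, chr9:64022056-64022159, minus strand, ending 4 bases after the start of the gene: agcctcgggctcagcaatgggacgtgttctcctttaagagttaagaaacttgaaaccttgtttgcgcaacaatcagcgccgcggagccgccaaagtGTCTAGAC
Id2, chr12:25096254-25096342, minus strand, beginning 250 bases before the start: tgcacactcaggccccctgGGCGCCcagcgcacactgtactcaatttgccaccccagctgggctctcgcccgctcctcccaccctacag
Id3, chr4:136143740-136143769, plus strand, holding position −68 from the start: gtggacccttggcgGTCTgttttgaataag
The palindromic SMAD box GTCTAGAC spans the start of Smad6 and was found, of the 4 genes, only there; on either strand it occurs in 0.211% of the 27025 promoters searched (250 bases before to 50 after each start). The core of the BMP response element, GGCGCC, which is its own reverse complement, lies at −231 of Id2 and occurs in 12% of promoters. The short SMAD box GTCT, which the palindromic box contains, here at −68 of Id3, occurs on one strand or the other in 88% of promoters and in all 4 genes. The Id2 window lies in an intron of a longer Id2 transcript and the Id3 window in the 5′ UTR exon of a longer Id3 transcript of the GENCODE annotation. A match of letters is a description of the window and not a bound site.

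The libraries held 2013350 to 2806821 counted reads in DPY30–mAID SLAM-seq, 1721185 to 2852331 in RBBP5–FKBP, 5931269 to 7792404 in dKO and 1264241 to 2543632 in Quant-seq. In Quant-seq, DMSO day 6 replicates 1 and 2 held identical counts for all 20177 genes and were used as 1 sample. The T>C reads, those with at least 1 T-to-C conversion, made up 15.3 to 16.1% of reads at 0 h in DPY30–mAID, 9.10 to 10.1% in RBBP5–FKBP and 4.69 to 5.27% in dKO, whose reads covered a mean of 11.2 T positions against 18.7 in both other lines. The 3 DPY30–mAID libraries at 8 h stood apart from each other, at 13%, 9.82% and 5.51% T>C reads. The mES cell markers (7 of 7 detected) summed to 6084 to 9026 CPM (reads scaled by the total of the library, per 1e6; T>C reads too are set against all reads) in the 0 h SLAM-seq libraries of the 3 lines and the markers of fibroblasts or feeder cells to at most 2.57 CPM. Degradation acts on protein, so the reads do not check the loss of DPY30 or RBBP5. Kdm5a reads were 26.0 to 40.7 CPM over the 12 dKO libraries against 61.1 to 107 CPM in DPY30–mAID SLAM-seq, and Kdm5b reads 109 to 151 CPM against 389 to 946 CPM. In Quant-seq of DPY30–mAID with DMSO, Kdm5a stood at 40.9 to 46.1 CPM at 0 h and 30.6 to 37.1 at 8 h, the latter within the dKO range. Kdm5b stood there at 299 to 343 and 230 to 257 CPM. Where these 3′ tags lie relative to the deleted parts is not given in the sources used here, and a tag outside them checks nothing.

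Most of the feedback genes carried a high share of labelled reads before any degradation, as the plot of T>C shares by gene shows. Of the 854 Id1 reads pooled over the 0 h libraries of DPY30–mAID, 40.3% were T>C reads (exact 95% binomial interval 37.0 to 43.7%), against a median of 18.7% over 6798 genes with at least 100 pooled reads. In RBBP5–FKBP the share of Id1 was 34.7% (32.0 to 37.5%) against a median of 10.2%, and in dKO it was 31.4% (30.2 to 32.6%) against 5.42%. Id1 thereby stood at the 96.7th, 99.2nd and 99.8th percentile of genes in the 3 lines. Smad7 had 33.2% in DPY30–mAID and 24.7% in RBBP5–FKBP, and in dKO it came next after Id1 with 29.5%. The shares of Id2, Id3 and Skil lay between 34.0% and 36.4% in DPY30–mAID, between 24.8% and 27.6% in RBBP5–FKBP and between 14.5% and 19.1% in dKO. Nodal was closer to the median in DPY30–mAID (25.9%) and RBBP5–FKBP (12.4%), at 12.9% in dKO. Lefty1 stood apart in dKO, where 6 of 503 reads (1.19%, 0.439 to 2.58%) were T>C reads, at the 5.60th percentile, against 13% (8.94 to 18.0%) in RBBP5–FKBP. Lefty2 showed the same order, with 3.72% (2.18 to 5.89%) in dKO and 18.6% (16.0 to 21.4%) in RBBP5–FKBP. In the unlabelled Quant-seq libraries 0.440% (0.190 to 0.864%) of Lefty1 reads were T>C reads. The interval of Lefty1 in dKO overlaps with this background. A read can convert only at the T positions it covers. Their mean number was 25.4 for Id1 and 15.1 for Nodal in DPY30–mAID, where the median gene had 19.3, and 9.78 for Lefty1 against a median of 11.8 in dKO; the part of this in the shares was not tested. These intervals cover counting error only.

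**Figure D1:**
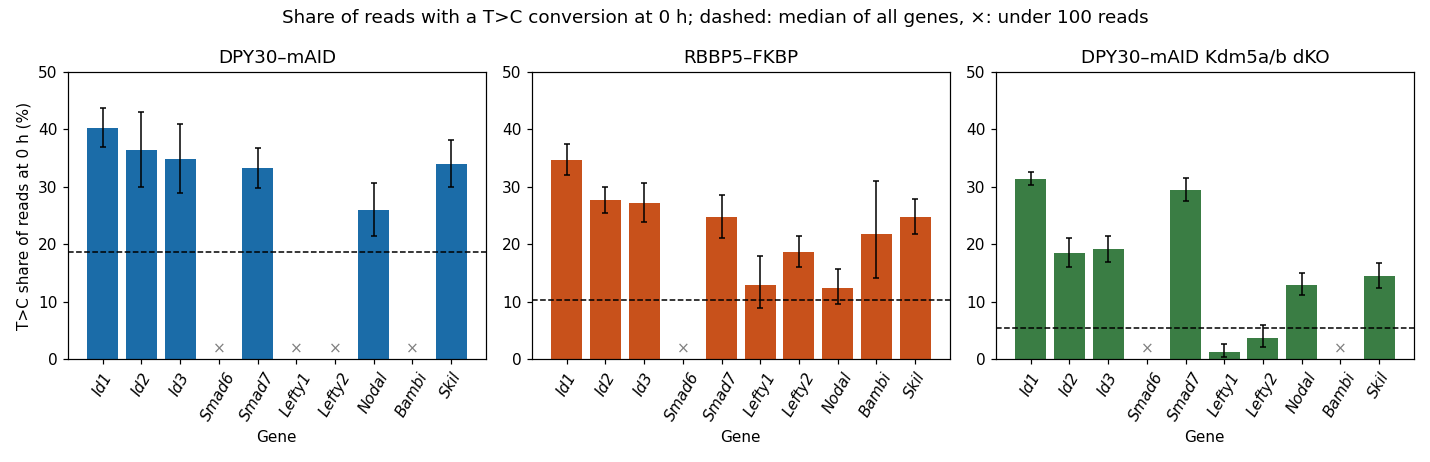
Share of reads with a T>C conversion (%, y axis) for each gene (x axis) in the pooled 0 h libraries of the 3 SLAM-seq lines; bars are the pooled share, error bars the exact 95% binomial interval, the dashed line the median of all genes and × marks genes with under 100 pooled reads. Id1 is the tallest bar in each line, from 31.4% to 40.3%, and the bars of Lefty1 and Lefty2 lie under the dashed line in dKO.

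The first question was whether the feedback genes change when the H3K4 methyltransferase complexes lose a shared subunit. T>C reads were tested against the 0 h libraries of the same line, scaled to total reads, in edgeR's quasi-likelihood test over all genes whose mean reached 10 reads at any time point. A gene passed at a Benjamini–Hochberg adjusted p below 0.05. In DPY30–mAID 7 of the 10 genes reached that filter for T>C reads, and 0, 0 and 1 of them passed at 2, 8 and 24 h, where 0%, 16.3% and 3.61% of all 6317 tested genes passed. In RBBP5–FKBP 8 genes were tested and 0, 3 and 5 passed, beside 0.252%, 7.83% and 26.1% of all genes. In dKO 6 genes were tested and 0, 1, 0, 3 and 4 passed at 2, 4, 8, 24 and 48 h, beside 0%, 0.587%, 1.56%, 43.2% and 72.3% of all genes. The shares that passed at 24 and 48 h in dKO were thus 3 of 6 and 4 of 6 beside 43.2% and 72.3%. For total reads, 0, 2 and 4 of 9 genes passed in DPY30–mAID (0.0305%, 13% and 33% of all genes), 0, 4 and 3 of 10 in RBBP5–FKBP (0%, 9.25% and 7.47%), and 0, 0, 0, 3 and 4 of 10 in dKO (0%, 0%, 0.772%, 11.5% and 14.6%). Members that miss the filter in a fit are given by their values alone.

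The counts of 0 came from the edgeR test. In T>C counts simulated for 8 h, it recovered 2-fold changes for 7 of 100 genes in DPY30–mAID and 3 of 99 in RBBP5–FKBP. A count of 0 in such T>C reads therefore says little about changes of that size. For T>C reads, DPY30–mAID had 0 genes with an unadjusted p below 0.05 at 2 h and 1 at 8 h, RBBP5–FKBP had 2 at 2 h, and dKO had 2 at 2 h and 1 at 8 h. For total reads there was 1 such gene at 2 h in DPY30–mAID, 1 at 2 h in RBBP5–FKBP, and 0, 2 and 2 at 2, 4 and 8 h in dKO. DESeq2 passed 1 gene in the T>C reads of RBBP5–FKBP at 2 h, 1 in the total reads of dKO at 4 h and 0 in the rest of these comparisons. It gave no adjusted p for 9, 4 and 2 of the 10 genes in total reads of dKO at 2, 4 and 8 h, 3 of 9 in total reads of DPY30–mAID at 2 h, 1 of 7 in its T>C reads at 8 h and 2 of 8 in T>C reads of RBBP5–FKBP at 2 h, so those counts cover the other genes alone. All times of a line share its 0 h libraries. The study calls the SLAM-seq replicates biological. The sources used here do not say whether the Quant-seq replicates of the RA course came from separate cultures, so p-values there measure the spread between the samples, which may be technical.

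The scale matters for the T>C reads because labelled reads fell in most genes. The median log2 change over all genes, scaled to total reads, was −0.71 at 8 h in DPY30–mAID, −0.50 and −0.91 at 8 and 24 h in RBBP5–FKBP, and −0.80 and −1.29 at 24 and 48 h in dKO. Scaling to the T>C reads themselves brought these medians to −0.09, −0.16, −0.20, −0.08 and −0.11. Values are therefore given on total reads, with those relative to the median of all genes or with T>C scaling beside calls that this touches.

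**Figure D2:**
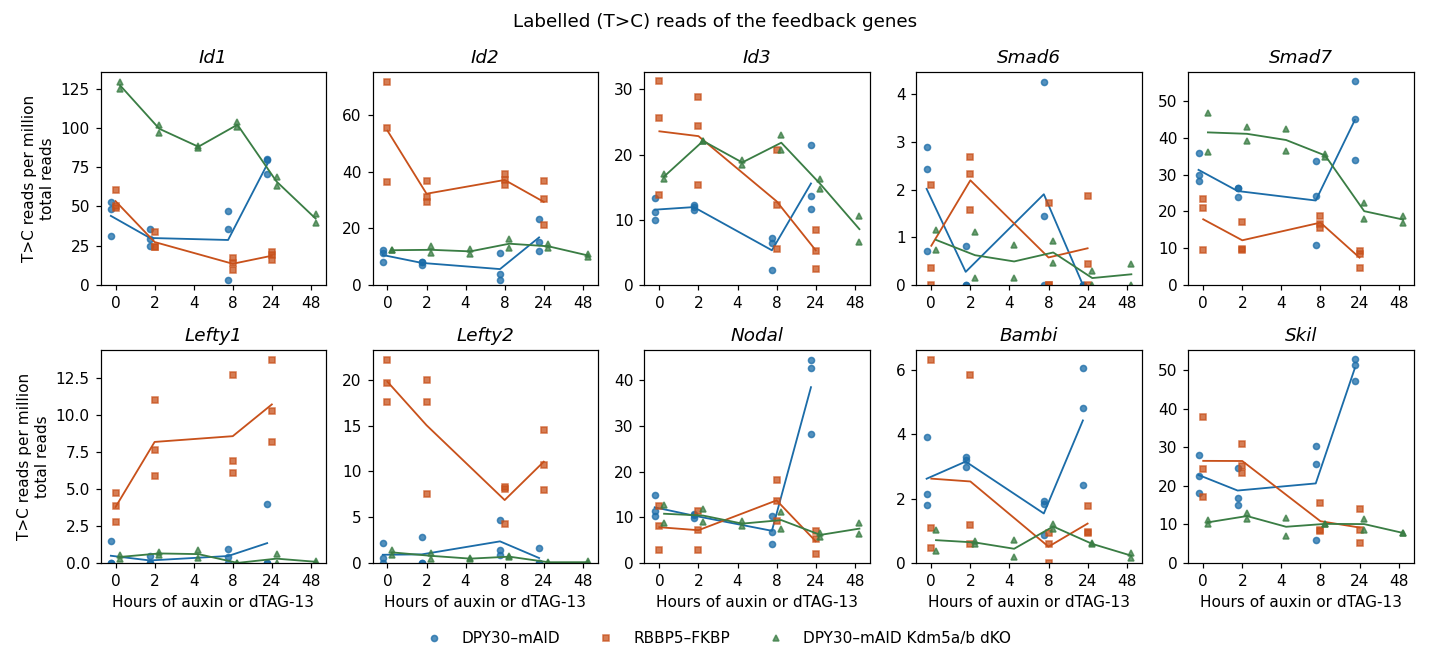
T>C reads in CPM of all reads (y axis, from 0, own scale for each gene) against hours of auxin or dTAG-13 (x axis, evenly spaced) for the 10 genes in DPY30–mAID (circles), RBBP5–FKBP (squares) and dKO (triangles); points are libraries and lines join means. Id1 runs from 125 and 129 to 39.5 and 45.0 in dKO, and in DPY30–mAID the 24 h points of Nodal, 28.3 to 44.5, lie above all its earlier points.

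Id1 had the most labelled reads of the 10 genes at 0 h in DPY30–mAID and dKO, and overlapped with Id2 in RBBP5–FKBP. In RBBP5–FKBP its T>C reads stood at 50.3, 60.7 and 49.0 CPM at 0 h, at 33.7, 23.9 and 24.3 at 2 h, at 13.8, 17.1 and 9.40 at 8 h and at 15.9, 21.0 and 18.8 at 24 h. All libraries from 2 h on lay below all 0 h libraries. The log2 changes were −0.99 ± 0.31 (SE) at 2 h (adjusted p = 0.14), −2.04 ± 0.33 at 8 h (adjusted p = 1.34e-05) and −1.55 ± 0.32 at 24 h (adjusted p = 0.000136). Relative to the median gene the changes at 8 and 24 h were −1.54 and −0.64. With T>C scaling the change at 8 h was −1.70 and still passed, and that at 24 h was −0.85 with an adjusted p of 0.131. Total Id1 reads fell with it at 8 h, from 148, 166 and 149 to 78.9, 77.9 and 78.9 CPM (log2 change −1.02 ± 0.16, adjusted p = 0.000162), and stood at 144, 129 and 138 CPM at 24 h (−0.20 ± 0.15, adjusted p = 0.451).

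In dKO the T>C reads of Id1 went from 125 and 129 at 0 h through 97.0 and 102 at 2 h, 88.7 and 87.3 at 4 h, 101 and 103 at 8 h and 63.1 and 68.6 at 24 h to 39.5 and 45.0 at 48 h. Both libraries of each later time lay below both 0 h libraries. The change passed at 4 h (−0.55 ± 0.14, adjusted p = 0.0348), 24 h (−1.01 ± 0.14, adjusted p = 1.82e-08) and 48 h (−1.67 ± 0.15, adjusted p = 5.04e-17). Relative to the median gene it was −0.21 at 24 h and −0.38 at 48 h, and with T>C scaling it passed at 48 h alone (−0.49, adjusted p = 0.000419). The 4 h call was lost without 0 h replicate 2, 4 h replicate 1 or 4 h replicate 2 (adjusted p 0.220, 0.251 and 0.345). Total Id1 reads of dKO stayed between 325 and 409 CPM over the 12 libraries and passed at no time, except as lower at 48 h without 48 h replicate 2 (−0.25, adjusted p = 0.0344). In DPY30–mAID, T>C reads of Id1 were 31.2, 48.1 and 52.5 at 0 h, 47.3, 35.3 and 3.19 at 8 h, and 79.4, 70.3 and 80.3 at 24 h. Replicate 3 of the 8 h libraries, which has the lowest share of T>C reads, lay far below the others. Id1 passed at 8 h (−1.31, adjusted p = 0.0196) only when 8 h replicate 1 was left out. At 24 h all 3 libraries were above all 0 h libraries (0.79 ± 0.40, adjusted p = 0.27; 0.90 and adjusted p = 0.0161 with T>C scaling). Total Id1 reads rose there, from 96.2, 116 and 120 to 186, 165 and 175 CPM (0.65 ± 0.15, adjusted p = 0.000575).

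Id2 and Id3 encode 2 further inhibitors of the same class. In RBBP5–FKBP, T>C reads of Id3 were 13.9, 25.6 and 31.2 CPM at 0 h and 8.42, 5.12 and 2.41 at 24 h. The groups did not overlap (−2.17 ± 0.47, adjusted p = 0.000376; −1.26 relative to the median gene; −1.47 and adjusted p = 0.0763 with T>C scaling). Those of Id2 were 36.5, 55.4 and 71.9 at 0 h and 21.3, 30.3 and 36.6 at 24 h, which overlapped (−0.93 ± 0.29, adjusted p = 0.0109; −0.02 relative to the median gene; −0.25 and adjusted p = 0.745 with T>C scaling). The Id2 call was also lost without 0 h replicate 3 or 24 h replicate 1 (adjusted p 0.103 and 0.0876). Total reads of Id3 were 39.7, 81.0 and 138 CPM at 0 h, 42.6, 19.3 and 56.9 at 8 h and 41.2, 34.9 and 26.5 at 24 h, and both later times passed as lower (−1.18 and −1.37). Here the 0 h libraries themselves spread over more than 3-fold: without 0 h replicate 3 the changes were −0.66 (adjusted p = 0.259) and −0.86 (adjusted p = 0.129). The 8 h call was also lost without 0 h replicate 2, 8 h replicate 1 or 8 h replicate 2 (0.0588, 0.0837 and 0.119), and the 24 h call without 24 h replicate 3 (0.0841).

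In DPY30–mAID, total reads of Id3 fell at 8 h, from 34.2, 29.2 and 36.6 to 18.3, 20.3 and 18.2 CPM (−0.91 ± 0.26, adjusted p = 0.0145; 0.0593 without 0 h replicate 3), and were 53.8, 35.9 and 42.8 CPM at 24 h. Its T>C reads at 8 h were 6.39, 7.26 and 2.28 CPM against 11.2, 9.98 and 13.4 at 0 h (−1.21 ± 0.52, adjusted p = 0.101). Id2 passed at no time in DPY30–mAID with all libraries, and at 8 h in T>C reads only without 8 h replicate 2 (−1.99, adjusted p = 0.0483). Its total reads were 22.9, 24.6 and 37.7 CPM at 0 h and 50.1, 39.8 and 45.2 at 24 h (0.65 ± 0.26, adjusted p = 0.0517; 0.90 and 0.0208 without 0 h replicate 3). In dKO, total reads of both rose late. In these libraries, where total reads of Nodal and Skil rose by 48 h too, trophectoderm markers summed to 49.4–52.9 CPM at 0 h, 59.3–62.6 at 24 h and 98.3–107 at 48 h. Primitive endoderm markers summed to 475–515, 432–466 and 611–648 CPM and mES cell markers to 6297–6584, 5518–5547 and 5637–5740 CPM. The part of these shifts in the rises was not tested. Id2 went from 71.8 and 61.5 CPM to 98.8 and 103 at 24 h (0.54 ± 0.09, adjusted p = 0.00101) and 109 and 112 at 48 h (0.64 ± 0.09, adjusted p = 0.000169). Id3 went from 87.5 and 86.6 CPM to 120 and 113 (0.36 ± 0.07, adjusted p = 0.00597; 0.0824 without 24 h replicate 1) and to 110 and 110 (0.25 ± 0.07, adjusted p = 0.0353, lost when any 1 library was left out, at 0.0704 to 0.125). T>C reads of Id2 stood at 12.4 and 12.2 CPM at 0 h and 9.91 and 11 at 48 h in that line and passed at no time, while the median gene fell; with T>C scaling the same reads rose (0.82 at 24 h, adjusted p = 0.00213, and 0.87 at 48 h, adjusted p = 0.00158). T>C reads of Id3 were lower at 48 h on total reads (6.55 and 10.5 against 16.2 and 17.1; −1.04 ± 0.22, adjusted p = 3.51e-05), and the sign changed with T>C scaling (0.14, adjusted p = 0.752), where Id3 rose at 24 h (0.56, adjusted p = 0.0303).

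Among the inhibitory SMADs, Smad7 was well measured and Smad6 was not. In dKO the T>C reads of Smad7 were 36.2 and 46.7 CPM at 0 h, 35.6 and 34.8 at 8 h, 17.8 and 22.3 at 24 h and 16.8 and 18.7 at 48 h, so that both late groups lay below every earlier library. The changes passed at 24 h (−1.12 ± 0.18, adjusted p = 3.96e-07) and 48 h (−1.31 ± 0.18, adjusted p = 1.25e-09). Against the median gene they were −0.31 and −0.02, and neither passed with T>C scaling (−0.38 and −0.12, adjusted p = 0.0845 and 0.694). Total Smad7 reads stayed between 130 and 172 CPM in this line and passed at no time. In RBBP5–FKBP, T>C reads of Smad7 were 20.8, 9.47 and 23.2 at 0 h and 8.42, 4.66 and 9.16 at 24 h (−1.29 ± 0.46, adjusted p = 0.0311). Relative to the median gene this was −0.38, and with T>C scaling −0.58 (adjusted p = 0.592). The call was also lost without 0 h replicate 1 or 3 or 24 h replicate 1 or 2 (0.0878, 0.124, 0.0558 and 0.131). In DPY30–mAID Smad7 passed at no time, with T>C reads of 29.8, 28.1 and 35.9 at 0 h and 55.4, 45.1 and 33.9 at 24 h. Its total reads were higher at 24 h only without 24 h replicate 3 (0.56, adjusted p = 0.0124). Smad6 had 0 to 33 total reads a library in DPY30–mAID and RBBP5–FKBP and 12 to 36 in dKO. It missed the filter for T>C reads in all 3 lines, and it passed at no time for total reads in the 2 lines where it was tested.

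**Figure D3:**
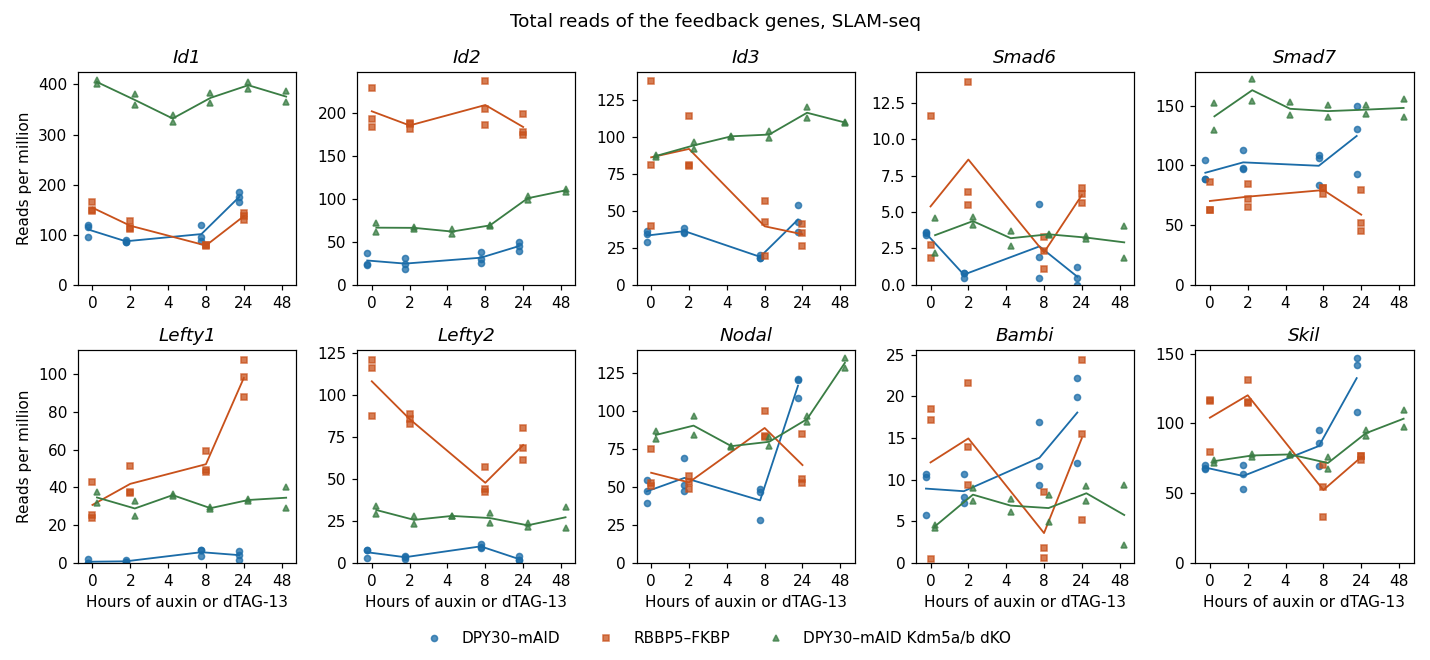
Total SLAM-seq reads in CPM (y axis, from 0, own scale for each gene) against hours of auxin or dTAG-13 (x axis, evenly spaced); points are libraries, lines join means, circles mark DPY30–mAID, squares RBBP5–FKBP and triangles dKO. Lefty1 rises from 24.0 to 42.9 CPM at 0 h to 88.0 to 107 CPM at 24 h in RBBP5–FKBP, and Lefty1 and Lefty2 lie near 0 in DPY30–mAID.

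The SLAM-seq libraries of the 3 lines differed at the outset in the Nodal antagonists. At 0 h Lefty1 had 0, 0 and 5 reads in DPY30–mAID, 93, 72 and 66 in RBBP5–FKBP (42.9, 25.2 and 24.0 CPM) and 254 and 249 in dKO (37.4 and 32.0 CPM). Lefty2 had 16, 9 and 22 reads (7.81, 3.21 and 7.97 CPM) in DPY30–mAID, against 116, 87.6 and 121 CPM in RBBP5–FKBP and 34.1 and 28.9 CPM in dKO. The same DPY30–mAID line held 6.72 and 6.68 CPM of Lefty1 and 27.3 and 35.4 CPM of Lefty2 at 0 h in Quant-seq, so that Lefty2 there was near its level in dKO. Line and library batch cannot be told apart in this. The dKO line derives from DPY30–mAID. In RBBP5–FKBP the antagonist pair then moved apart. Total Lefty1 reads were 51.1, 37.7 and 36.8 CPM at 2 h, 48.4, 59.1 and 49.3 at 8 h and 98.3, 88.0 and 107 at 24 h, where all libraries exceeded all 0 h libraries (1.65 ± 0.24, adjusted p = 9.72e-05). At 8 h the rise passed only without 0 h replicate 1 (1.04, adjusted p = 0.00913). Primitive endoderm markers summed to 395–462 CPM at 0 h and 175–211 CPM at 24 h in these libraries, and neural markers to 69.7–84.2 CPM at 0 h, 115–121 at 8 h and 84.8–123 at 24 h. Their part in the changes of Lefty1, Lefty2, Id1, Id3 and Skil was not tested. T>C reads of Lefty1 were 2.77, 3.86 and 4.72 CPM at 0 h and 13.7, 10.2 and 8.19 at 24 h, also without overlap (1.45 ± 0.58, adjusted p = 0.0551; 2.15 and adjusted p = 0.0199 with T>C scaling). Total Lefty2 reads went the other way, to 42.1, 56.9 and 44.2 CPM at 8 h (−1.22 ± 0.20, adjusted p = 0.000363) and 80.6, 61.5 and 68.4 CPM at 24 h (−0.66 ± 0.20, adjusted p = 0.0408). The 24 h call held only without 0 h replicate 2 (0.0270) and was lost without any 1 of the other 5 libraries (0.0548 to 0.147). T>C reads of Lefty2 were 17.5, 19.6 and 22.2 at 0 h and 8.06, 8.29 and 4.23 at 8 h (−1.58 ± 0.48, adjusted p = 0.0285); this was lost without 0 h replicate 2 or 3 or any 1 of the 8 h libraries (0.0537 to 0.144) and with T>C scaling (−1.25, adjusted p = 0.193). The 2 genes are close copies and multimapped reads were kept in counting. Such reads made up 1.13% of Lefty2 reads in RBBP5–FKBP and 24.5% in dKO, and 2 of 1427 and 0 of 2668 of Lefty1 reads, so the level of Lefty2 in dKO is less certain.

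In DPY30–mAID, Lefty1 had 8, 14 and 15 total reads at 8 h and 11, 3 and 16 at 24 h, against 0, 0 and 5 at 0 h. It reached the filter only through the 8 and 24 h groups, so a difference from 0 h was a condition of its being tested. Its calls there (2.95 ± 1.03 and 2.59 ± 1.04, adjusted p 0.0475 and 0.0483) are given as values and support nothing, although they are among the 2 and 4 genes counted as passing for total reads. With no filter on low counts neither time passed (0.0784 and 0.0814). The 8 h call was kept only without 0 h replicate 3, and the 24 h call only without 0 h replicate 3 or 24 h replicate 2; the other adjusted p-values were 0.0516 to 0.178 and 0.0819 to 0.184. Lefty2 held 4, 8 and 4 reads at 24 h and passed at no time there. In dKO neither gene passed at any time with all libraries. Lefty2 was lower at 48 h only without 48 h replicate 1 (−0.66, adjusted p = 0.0224). Lefty1 ran between 25.1 and 40.2 CPM and Lefty2 between 20.9 and 34.1 CPM over the 12 libraries, and their T>C reads, 0 to 11 a library, were below the filter.

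Nodal, the ligand, rose in DPY30–mAID at 24 h. Its T>C reads were 10.3, 11.4 and 14.9 CPM at 0 h, 9.86, 10.8 and 10.4 at 2 h, 6.82, 10.2 and 4.10 at 8 h and 44.5, 42.7 and 28.3 at 24 h. Each of the last lay above all earlier libraries (1.64 ± 0.42, adjusted p = 0.0196; 1.77 relative to the median gene). The call was lost when any 1 of the 6 libraries was left out (adjusted p 0.0532 to 0.105, log2 change 1.53 to 1.81). Total Nodal reads went from 39.5, 47.0 and 54.3 to 108, 120 and 121 CPM (1.29 ± 0.20, adjusted p = 1.18e-06) and passed with any 1 library left out. In the same DPY30–mAID libraries, in which total reads of Skil and Id1 rose too, neural markers summed to 105–125 CPM at 0 h and 52.2–70.2 at 24 h and mES cell markers to 8137–9026 and 7145–7723 CPM. Mesoderm markers, which had few reads, summed to 3.56–19.5 CPM at 0 h and 0–1.94 at 24 h. The part of all these markers in the changes was not tested. In RBBP5–FKBP Nodal passed at no time, with total reads of 52.6, 74.7 and 50.5 CPM at 0 h, 82.9, 100.03 and 83.2 at 8 h and 52.7, 55.4 and 84.8 at 24 h. All 8 h libraries lay above all 0 h libraries (0.53 ± 0.22, adjusted p = 0.139). Its T>C reads were 12.5, 8.06 and 2.91 CPM at 0 h and 9.22, 18.2 and 13.6 at 8 h (0.78 ± 0.57, adjusted p = 0.447). In dKO its total reads rose by 48 h, from 81.2 and 87.0 to 128 and 135 CPM (0.56 ± 0.09, adjusted p = 0.000605). Its T>C reads, 8.82 and 12.7 CPM at 0 h, were 5.75 and 6.51 at 24 h (−0.88 ± 0.26, adjusted p = 0.00557) and 6.25 and 8.77 at 48 h (−0.61 ± 0.26, adjusted p = 0.0289). Both T>C calls were lost without 0 h replicate 2 (0.188 and 0.409), and without 24 h replicate 1 (0.0626) or 48 h replicate 1 (0.261). With T>C scaling Nodal passed at neither time, and the sign at 48 h changed (0.57, adjusted p = 0.122).

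Skil, the SMAD co-repressor, rose in DPY30–mAID and fell in RBBP5–FKBP. In DPY30–mAID its total reads rose at 24 h, from 67.4, 69.8 and 67.7 to 142, 108 and 147 CPM (0.94 ± 0.17, adjusted p = 2.17e-05). T>C reads were 18.1, 22.4 and 27.9 CPM at 0 h and 51.3, 52.9 and 47.2 at 24 h, groups without overlap (1.13 ± 0.39, adjusted p = 0.0914; 1.24 and 0.0019 with T>C scaling). In RBBP5–FKBP total reads fell at 8 h, from 116, 79.2 and 117 to 54.1, 32.6 and 70.0 CPM (−1.04 ± 0.22, adjusted p = 0.00393), and were 76.6, 74.1 and 76.6 CPM at 24 h (−0.49 ± 0.21, adjusted p = 0.167). T>C reads there fell from 37.9, 17.2 and 24.3 to 8.64, 8.29 and 15.5 at 8 h (−1.32 ± 0.41, adjusted p = 0.0346) and to 8.42, 5.12 and 14.0 at 24 h (−1.55 ± 0.42, adjusted p = 0.00343). The 8 h call was lost without 0 h replicate 1 or 3 or 8 h replicate 1 or 2 (0.218, 0.0606, 0.134 and 0.143), and with T>C scaling neither time passed (0.274 and 0.309). In dKO, T>C reads of Skil passed at no time (10.0 and 11 at 0 h, 7.77 and 7.73 at 48 h) and total reads rose from 74.0 and 71.9 to 95.1 and 90.7 CPM at 24 h (0.29 ± 0.09, adjusted p = 0.0496, lost without any 1 library at 0.132 to 0.250) and to 97.4 and 109 CPM at 48 h (0.42 ± 0.09, adjusted p = 0.00512). Bambi had few reads, 16 to 55 a library in DPY30–mAID, 1 to 55 in RBBP5–FKBP and 14 to 65 in dKO, and passed at no time in any line with all libraries. Its total reads passed as higher in DPY30–mAID at 24 h without 24 h replicate 1 (1.24, adjusted p = 0.0339). In RBBP5–FKBP they passed as lower at 8 h without 0 h replicate 1 (−2.30, adjusted p = 0.0239) or 8 h replicate 3 (−3.39, adjusted p = 0.0327).

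Whether the lines differed was tested as an interaction, the change in the other line minus the change in DPY30–mAID, on T>C reads. At 24 h 5 of 9 tested genes passed between RBBP5–FKBP and DPY30–mAID, where 8.49% of all genes did, and all 5 were lower in RBBP5–FKBP. The differences were −2.70 ± 0.58 for Skil (adjusted p = 0.000821), −2.35 ± 0.52 for Id1 (0.000922), −2.60 ± 0.70 for Id3 (0.00903), −2.38 ± 0.74 for Nodal (0.0262) and −1.81 ± 0.58 for Smad7 (0.0316), against a median of −0.66 over all genes. Skil and Id1 passed with any 1 library left out and with T>C scaling (−2.05 and −1.73). Id3 was lost without DPY30–mAID 24 h replicate 3 (0.0504) and with T>C scaling (0.0592). Nodal was lost without replicate 1 or 2 of DPY30–mAID at 0 or 24 h, RBBP5–FKBP 0 h replicate 1 or 24 h replicate 3 (0.0644 to 0.136). Smad7 was lost without the same 4 DPY30–mAID libraries, RBBP5–FKBP 0 h replicate 1 or 3, or 24 h replicate 1 or 2 (0.0513 to 0.107). With T>C scaling Nodal (−1.70, adjusted p = 0.176) and Smad7 (−1.17, adjusted p = 0.222) did not pass either. Id2 passed only without RBBP5–FKBP 0 h replicate 1 (0.0415) or 24 h replicate 3 (0.0470). Between dKO and DPY30–mAID, 3 of 7 genes passed at 24 h, where 1.84% of all genes did: Nodal (−2.53 ± 0.56, adjusted p = 0.0146), Smad7 (−1.63 ± 0.45, 0.0452) and Id1 (−1.81 ± 0.51, 0.0456), against a median of −0.72. Smad7 and Id1 were lost when any 1 of the 10 libraries was left out (0.0715 to 0.365 and 0.0739 to 0.310), and Nodal without DPY30–mAID 0 h replicate 1 or 2 or 24 h replicate 2, dKO 0 h replicate 2, or either dKO 24 h library (0.0539 to 0.247). With T>C scaling Nodal (−1.83) and Id1 (−1.13) passed and Smad7 did not (−0.94, adjusted p = 0.0911). At 2 and 8 h the edgeR test passed 0 genes in either pair of lines, beside 0% and 0.0937% of all genes for RBBP5–FKBP and 0% and 0.0726% for dKO; 0 and 3 genes for RBBP5–FKBP and 0 and 1 for dKO had an unadjusted p below 0.05. DESeq2 passed 0 at both times, but at 8 h it gave no adjusted p for 8 of the 9 genes for RBBP5–FKBP and 4 of the 7 for dKO. In the same libraries the share of T>C reads over all genes went, from 0 to 24 h, from 15.3–16.1% to 14.5–15.8% in DPY30–mAID, from 9.10–10.1% to 4.85–5.33% in RBBP5–FKBP and from 4.69–5.27% to 2.98–3.13% in dKO; its part in the differences was not tested. Both interaction fits use the same DPY30–mAID libraries.

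Of the 41 other genes of the 2 branches in the tables, 14 to 31 were tested in each SLAM-seq comparison. The co-receptor gene Tdgf1 fell in the T>C reads of dKO at 4, 8, 24 and 48 h (−0.74, −1.12, −1.92 and −2.25), and in total reads from 8 h (−0.55). In the total reads of RBBP5–FKBP at 24 h it rose (0.44), where of 23 tested genes 1 rose and 1 fell, beside 7.47% of all genes. In the total reads of DPY30–mAID at 24 h, where 33% of all genes passed (1568 higher and 1682 lower), Tdgf1 rose too (0.89). It was the 1 gene of 25 tested that did, while 11 fell. The genes that fell included Ski, the relative of Skil (−1.44), Gdf3, a Nodal-type ligand (−1.16), Pcsk6, which cleaves Nodal precursors (−2.54), and Eomes, a Nodal target (−2.35). In RBBP5–FKBP, T>C reads of Smad4, the SMAD that both branches share, fell at 8 h (−1.37) and 24 h (−1.70), and those of Tgif1, another repressor of SMAD targets, at 24 h (−1.18), where the median gene changed by −0.50 at 8 h and −0.91 at 24 h. In dKO 11 of 21 tested genes passed at 24 h and 17 at 48 h for T>C reads, all lower, with medians of −0.94 and −1.50 beside −0.80 and −1.29 over all genes, of which 43.2% and 72.3% passed.

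**Figure D4:**
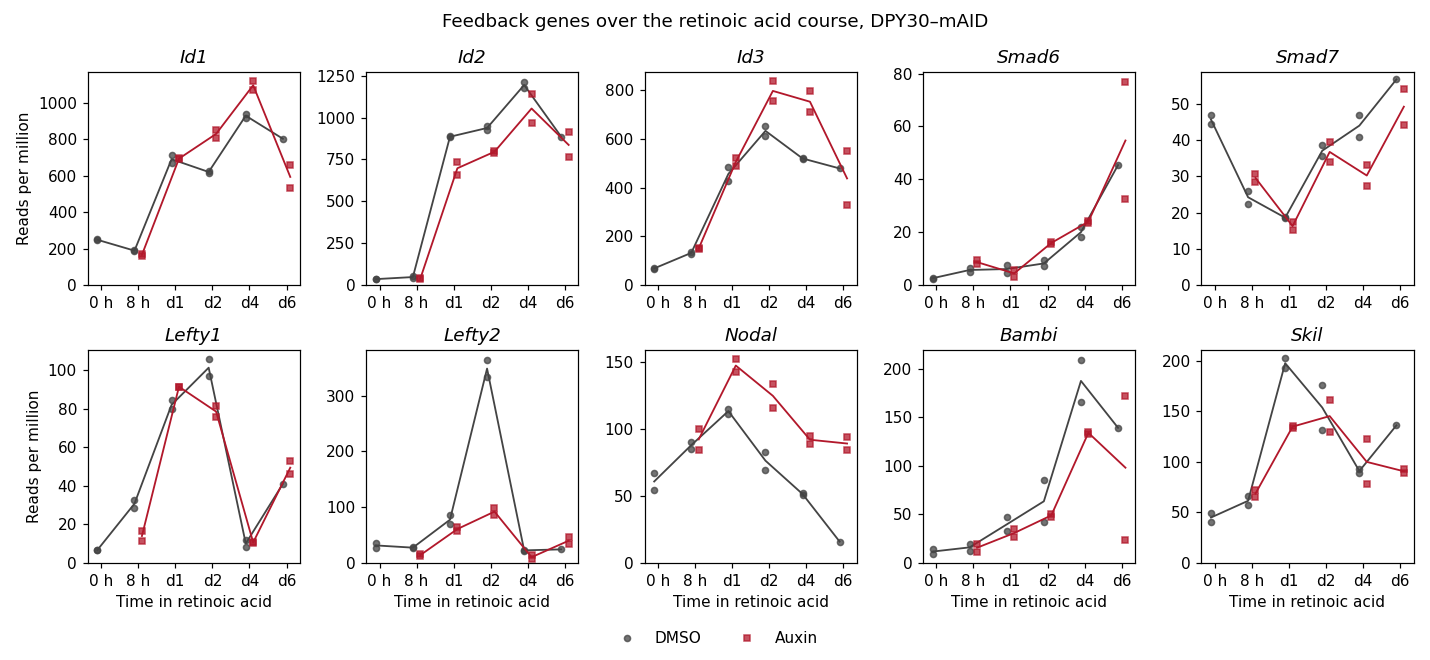
Quant-seq reads in CPM (y axis, from 0, own scale for each gene) against time in RA (x axis, evenly spaced) for the 10 genes in DPY30–mAID cells with DMSO (circles) or auxin (squares); points are libraries (1 for DMSO on day 6) and lines join means. Id2 climbs from 34.0 and 35.0 to 883 and 887 CPM by day 1 with DMSO, Lefty2 peaks on day 2 at 333 and 364 CPM with DMSO and at 97.9 and 86.1 with auxin, and Nodal ends at 15.9 CPM with DMSO and at 83.8 and 94.1 with auxin.

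The second question was how the same genes behave as cells leave the stem cell state in RA, and whether auxin changes that. The markers show that the population changed. With DMSO the summed mES cell markers went from 6288–6508 CPM at 0 h to 7325–7423 on day 1, then to 4218–4241, 3369–3385 and 1730 CPM on days 2, 4 and 6. Primitive endoderm markers (6 of 6 detected) went from 273–284 to 266–279, 1119–1181, 5445–5520 and 7802 CPM and trophectoderm markers from 61.8–66.0 to 49.6–55.3, 283–318, 594–613 and 1834 CPM. On day 1 the mES cell markers were thus higher than at 0 h and those of primitive endoderm and trophectoderm were not. Neural markers summed to 110–118 CPM at 0 h, 44.1–69.5 at 8 h and 62.8–72.7 on day 1. They then stood at 109–121, 85.6–93.7 and 33.5 CPM on days 2, 4 and 6. In a bulk sample, fewer cells of a type and less RNA per cell cannot be told apart. With DMSO, 6, 9, 8, 8 and 8 of the 10 genes passed against 0 h at 8 h and on days 1, 2, 4 and 6, beside 18.3%, 51.8%, 48%, 54.3% and 55.2% of all 11415 genes tested. On day 6 the DMSO arm is 1 sample, so the p-values of day 6 rest on a spread taken from the other groups. The part of the shift in markers in the changes of the 10 genes was not tested.

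The 3 Id genes rose early and stayed high. Id2 went from 34.0 and 35.0 CPM at 0 h to 43.4 and 50.4 at 8 h, 883 and 887 on day 1, 949 and 926 on day 2, 1214 and 1175 on day 4 and 885 on day 6. The log2 changes from day 1 on were 4.48 to 4.93 (adjusted p at most 3.91e-19). Id3 went from 65.8 and 69.6 CPM to 135 and 128 at 8 h (1.01 ± 0.16, adjusted p = 4.19e-05), 426 and 486 on day 1 and 654 and 612 on day 2 (3.15 ± 0.15). Id1 was first lower, at 185 and 191 CPM at 8 h against 245 and 251 (−0.34 ± 0.10, adjusted p = 0.0158, lost without any 1 library at 0.0579 to 0.115). It then rose to 714 and 668 CPM on day 1 (1.49 ± 0.09, adjusted p = 7.92e-13) and 940 and 920 on day 4 (1.73 ± 0.09). The 8 h rise of Id2 (0.51 ± 0.17, adjusted p = 0.033) was lost without either 0 h library or 8 h replicate 2 (0.129, 0.121 and 0.291).

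Of the inhibitory SMADs, Smad6 had 6 reads in each 0 h library (2.69 and 2.36 CPM) and had 18.0 and 21.9 CPM on day 4 (2.78 ± 0.44, adjusted p = 6.16e-06) and 45.4 CPM on day 6 (3.95 ± 0.43, adjusted p = 1.88e-08). With 6 reads at 0 h it entered the fit only through groups in which it was higher, so these calls, counted above among the genes that passed, are given as values and support nothing. The fit with no filter on low counts did not select it in this way, and there the differences on days 2, 4 and 6 passed (adjusted p = 0.00391, 5.81e-11 and 9.68e-22). Its day 2 value, 9.27 and 6.99 CPM, crossed the threshold in the filtered fit (1.59 ± 0.52, adjusted p = 0.0132) but not without 0 h replicate 2 or day 2 replicate 1 (0.082 and 0.0841), and day 1 passed only without day 1 replicate 2 (0.0495) or with no filter (0.0466). Smad7 fell, from 47.0 and 44.4 CPM to 22.5 and 26.0 at 8 h (−0.85 ± 0.18, adjusted p = 0.00162) and 18.4 and 18.7 on day 1 (−1.29 ± 0.20, adjusted p = 5.28e-06). It stood at 35.5 and 38.7 on day 2 and 56.8 on day 6, without passing.

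The Nodal antagonists were highest on day 2 of the times sampled. Lefty1 went from 6.72 and 6.68 CPM to 28.7 and 32.7 at 8 h (2.25 ± 0.24, adjusted p = 1.49e-07). It reached 79.8 and 84.3 on day 1, 106 and 97.0 on day 2 (3.83 ± 0.21, adjusted p = 3.51e-14), 11.7 and 8.39 on day 4 (0.41 ± 0.30, adjusted p = 0.296). On day 6 it stood at 41.0, again above 0 h (2.41 ± 0.27, adjusted p = 2.15e-08). Lefty2 followed later, with 28.2 and 26.4 CPM at 8 h against 27.3 and 35.4 at 0 h, 69.5 and 85.4 on day 1, 333 and 364 on day 2 (3.39 ± 0.17, adjusted p = 7.36e-15), and 22.1 and 22.8 on day 4 (−0.67 ± 0.22, adjusted p = 0.0127; 0.18 without 0 h replicate 2 and 0.0668 without day 4 replicate 1). On day 6 Lefty2, at 24.2 CPM, passed as lower only without 0 h replicate 1 (0.0414). Nodal itself moved less. It had 66.7 and 54.6 CPM at 0 h, 90.4 and 85.2 at 8 h (0.59 ± 0.15, adjusted p = 0.00471; 0.111 without 0 h replicate 2). It then had 115 and 111 on day 1 (0.91 ± 0.14, adjusted p = 7.63e-06), 82.9 and 69.5 on day 2, 50.9 and 51.8 on day 4. It ended at 15.9 on day 6 (−2.12 ± 0.24, adjusted p = 2.41e-08). The day 4 fall (−0.42 ± 0.15, adjusted p = 0.0244) was lost without 0 h replicate 1 or either day 4 library (0.243, 0.0952 and 0.0759). Of Lefty2 reads in the Quant-seq libraries, 22.7% with DMSO and 23.6% with auxin were multimapped. Bambi rose from 13.9 and 9.44 CPM to 32.6 and 46.8 on day 1 (1.78 ± 0.55, adjusted p = 0.00883; 0.0856 without 0 h replicate 2 and 0.0886 without day 1 replicate 2). It had 210 and 166 on day 4 (3.84 ± 0.46, adjusted p = 9.08e-08) and 139 on day 6. Skil rose from 40.3 and 49.5 CPM to 193 and 203 on day 1 (2.14 ± 0.17, adjusted p = 1.11e-10). It stood at 93.3 and 88.6 on day 4 and 136 on day 6, both still above 0 h (0.83 and 1.40).

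Auxin was compared with DMSO at the same time in RA, where 2, 1, 5, 4 and 3 of the 10 genes passed at 8 h and on days 1, 2, 4 and 6, beside 0.788%, 7.01%, 13.4%, 18.6% and 18.8% of all genes. These comparisons share the DMSO libraries with the DMSO course, and on day 6 the DMSO arm is 1 sample, whose spread is taken from the other groups. Lefty2 was the member with the largest fall: 97.9 and 86.1 CPM with auxin against 333 and 364 with DMSO on day 2 (−2.03 ± 0.15, adjusted p = 6.96e-10), which passed with any 1 library left out. At 8 h it had 15.2 and 12.7 CPM against 28.2 and 26.4 (−1.06 ± 0.25, adjusted p = 0.0388; 0.178 to 0.348 without any 1 library), and on day 4 it had 6.83 and 13.6 against 22.1 and 22.8 (−1.33 ± 0.29, adjusted p = 0.00181; 0.0736 without auxin day 4 replicate 1). Lefty1 was lower at 8 h, at 16.6 and 11.3 CPM against 28.7 and 32.7 (−1.23 ± 0.21, adjusted p = 0.00235; 0.0929 without DMSO replicate 2 and 0.141 without auxin replicate 2), and on day 2, at 75.7 and 81.3 against 106 and 97.0 (−0.48 ± 0.15, adjusted p = 0.0327; 0.0909 to 0.199 without any 1 library). On day 1 neither antagonist passed, with Lefty1 at 91.4 and 91.4 CPM against 79.8 and 84.3 and Lefty2 at 57.1 and 64.4 against 69.5 and 85.4.

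Nodal was higher with auxin on days 2, 4 and 6. It had 116 and 133 CPM on day 2 against 82.9 and 69.5 (0.60 ± 0.14, adjusted p = 0.00461), 88.7 and 94.9 on day 4 against 50.9 and 51.8 (0.63 ± 0.15, adjusted p = 0.00432) and 83.8 and 94.1 on day 6 against 15.9 (2.28 ± 0.24, adjusted p = 6.91e-08). The day 2 call was lost without DMSO or auxin day 2 replicate 2 (0.0938 and 0.0828), and the day 4 call passed with any 1 of the 4 libraries left out. On day 6 leaving out an auxin library would set 1 library against 1, which is no check of the call. Lefty1 did not pass on day 4, at 10.5 and 10.7 CPM with auxin against 11.7 and 8.39 (−0.13 ± 0.29). On day 6 neither antagonist passed, with Lefty1 at 52.9 and 45.9 CPM against 41.0 (0.08 ± 0.22) and Lefty2 at 33.7 and 45.9 against 24.2 (0.51 ± 0.28), so that both auxin libraries lay above the DMSO sample for both genes. Markers also differed between auxin and DMSO. The mES cell markers summed to 5126–5175 CPM with auxin against 5963–6171 with DMSO at 8 h, 4824–4878 against 7325–7423 on day 1, 3002–3045 against 4218–4241 on day 2 and 2135–2187 against 3369–3385 on day 4. On day 6 they were higher with auxin, at 1845–1863 against 1730 CPM. Neural markers were 96.5–103 against 62.8–72.7 CPM on day 1 and 61.2–98.1 against 33.5 on day 6. Primitive endoderm markers summed to 799–826 against 1119–1181 on day 2, 1576–1605 against 5445–5520 on day 4 and 1978–2144 against 7802 CPM on day 6. Markers of fibroblasts were 15.1–18.5 against 2.58–3.73 CPM on day 2, 52.8–53.4 against 28.0–37.8 on day 4 and 68.0–72.2 against 33.0 on day 6. The part of these shifts in the differences of Nodal, Lefty1, Lefty2 and the other genes was not tested.

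Among the other members, Skil was lower with auxin on day 1, at 134 and 136 CPM against 193 and 203 (−0.54 ± 0.16, adjusted p = 0.0376; 0.127 to 0.196 without any 1 library), and on day 6, at 92.8 and 88.6 against 136 (−0.78 ± 0.20, adjusted p = 0.00714). Id2 was lower on day 2, at 790 and 801 CPM against 949 and 926 (−0.35 ± 0.10, adjusted p = 0.0243; 0.0982 to 0.133 without any 1 library), and on day 4, at 1141 and 967 against 1214 and 1175 (−0.39 ± 0.10, adjusted p = 0.00704; 0.066 without DMSO day 4 replicate 1 and 0.143 without auxin day 4 replicate 2). Id1 was higher on day 2, at 851 and 808 CPM against 624 and 617 (0.31 ± 0.09, adjusted p = 0.0193; 0.0564 to 0.171 without any 1 library), and lower on day 6, at 656 and 531 against 803 (−0.63 ± 0.11, adjusted p = 0.000109). Smad7 was lower on day 4 alone, at 27.3 and 33.2 CPM against 41.0 and 47.1 (−0.75 ± 0.19, adjusted p = 0.0053; 0.0679 without DMSO day 4 replicate 2 and 0.0904 without auxin day 4 replicate 1). Id3, Smad6 and Bambi passed at no time with all libraries. The auxin libraries of day 6 differed from each other in these, with Bambi at 172 and 23.7 CPM, Id3 at 548 and 327 and Smad6 at 77.0 and 32.4. Leaving out either of them sets 1 library against 1, with the spread taken wholly from other groups. Calls for 4 genes depended on this choice: without replicate 1 the differences for Bambi (−2.70), Id3 (−0.70) and Lefty2 (0.77) crossed the threshold, and without replicate 2 that for Id2 (−0.45). These are differences between single libraries and are not read as effects of auxin.

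**Figure D5:**
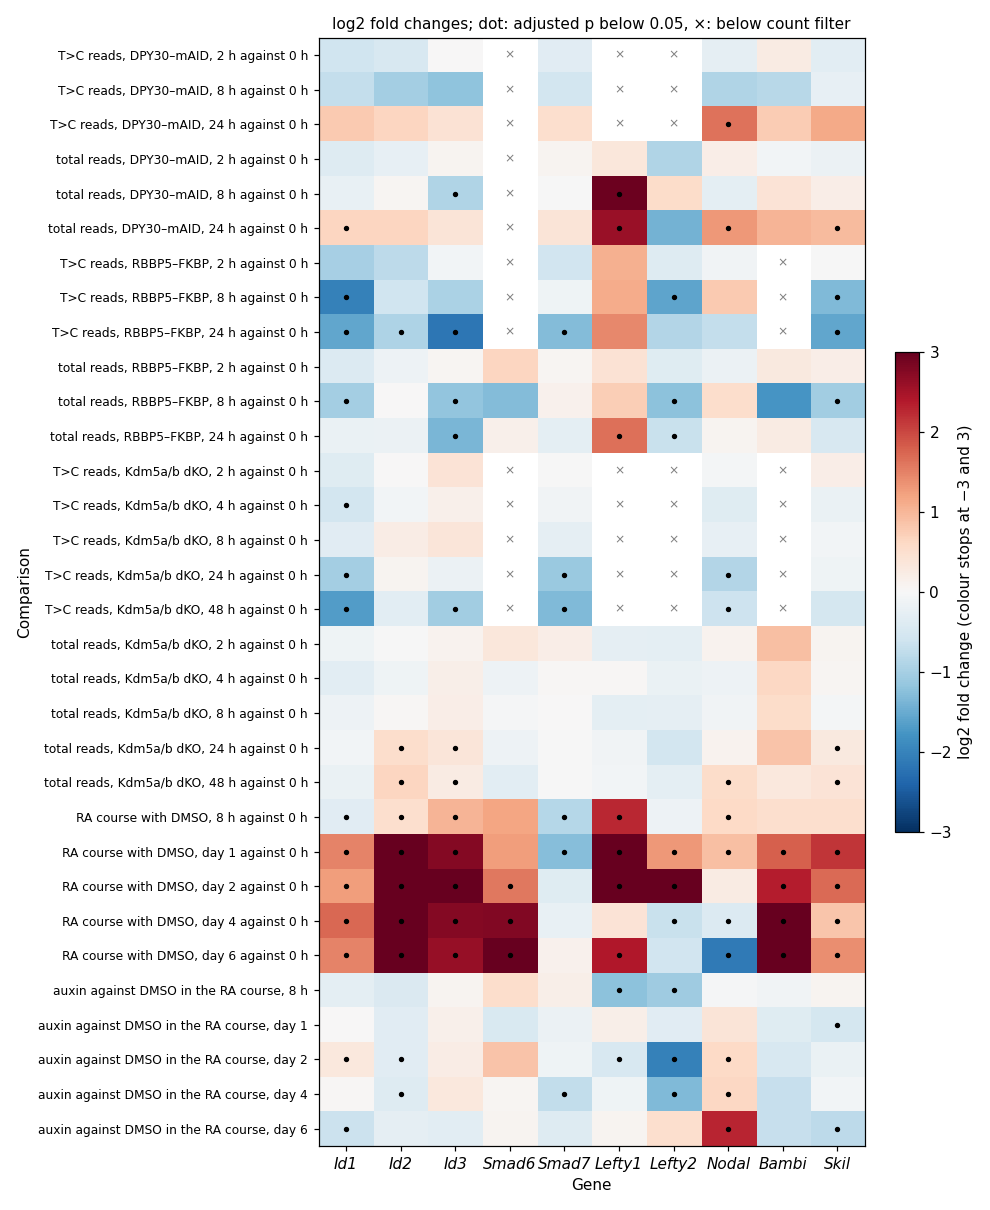
Fitted log2 fold changes (colour, red higher and blue lower, limited to −3 and 3) of the 10 genes (x axis) in each comparison (y axis); dots mark an adjusted p below 0.05 in the edgeR test and × genes below the count filter. The RA rows hold most of the strong colours, T>C reads in RBBP5–FKBP and dKO at late times are mostly blue, and Nodal is red and dotted on days 2, 4 and 6 of auxin against DMSO.

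In RA with DMSO, 30 of the 41 other genes of the 2 branches were tested, and the number that rose went from 1 at 8 h to 8, 10, 18 and 20 on days 1, 2, 4 and 6, with 6, 9, 8, 3 and 4 lower, beside 18.3%, 51.8%, 48%, 54.3% and 55.2% of all genes that passed in either direction. Their median log2 change on day 6 was 0.92, beside 0.07 over all genes. Tdgf1, which Nodal needs at the receptor, fell by 2.65 on day 1 and by 5.89 on day 6 on the log2 scale. Bmp2, a ligand of the other branch, had fitted changes of 5.12 on day 2 and 8.45 on day 6. The homeobox target Msx1 had 7.25 on day 1 from few or no reads, so that the fitted size depends on the prior count. Msx1 thus entered the fit only through groups in which it was higher. Its calls, counted among the genes that rose, are given as values and support nothing. Whether the same holds for Bmp2 was not examined, so its sizes too are given as values alone. Against DMSO, auxin left 0, 1, 3, 4 and 1 of the 30 higher and 2, 1, 3, 6 and 3 lower, beside 0.788%, 7.01%, 13.4%, 18.6% and 18.8% of all genes in either direction. Gdf3 was lower at 8 h (−1.60) and on day 1 (−1.39), Eomes on days 2 and 4 (−1.71 and −1.34), and Bmp2 on day 6 (−1.78). Tdgf1 was lower at 8 h (−0.59) and higher on days 2, 4 and 6 (0.50, 1.01 and 1.18).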

How the data were processed

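SLAM-seq and Quant-seq were QuantSeq 3′ end libraries of mES cells. The deposited values are counts: per the file headers, the authors ran SlamDunk 0.3.4 on GRCm38 and counted total reads and T>C reads per 3′ UTR interval (GENCODE vM14, multimapped reads kept, no molecular identifiers). The headers of the Quant-seq files name SlamDunk too, whereas the study's methods name HISAT2 2.2.1 and featureCounts. The study asked for at least 2 conversions a read; the deposited T>C counts hold at most 1.32 conversions a read on average, so reads with 1 conversion are in them. This can add background: unlabelled Quant-seq libraries held at most 0.388% T>C reads.

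Intervals were summed per gene (20177 genes from 46420 intervals, 2 members with 2 intervals and 8 with 1), and no column belonged to another sample. Samples were grouped by their labels. Counts were tested in edgeR 4.0.16 (R 4.3.3; quasi-likelihood, Benjamini–Hochberg over all genes tested), each line or the RA course in 1 fit with group as the sole term. T>C reads used total reads as library sizes with TMM factors from total reads. Genes whose mean reached 10 reads in any group entered. SE is the log2 change divided by the root of F. Scripts were tested on counts simulated with known changes. In T>C reads at 8 h, 2-fold changes were recovered for 7 of 100 genes in DPY30–mAID and 3 of 99 in RBBP5–FKBP. For 4-fold changes these were 55 and 48 of 100. In T>C reads of dKO at 24 h, 45 of 100 and 92 of 100 were recovered, and for auxin on day 2 of RA 72 and 97 of 100. Alternatives were DESeq2 1.42.0, no TMM, TMM from T>C reads, no filter, a log2 change of at least 1, a replicate block, and each library left out; where this left 1 library in a group, it was assumed to vary like the others.

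The rule for named genes was to name all 10 members, with up to 6 other passing genes of the pathway list by smallest p; members that did not pass are in part given in the text by counts alone. The members, pathway and marker lists were chosen with earlier results of these data known. Identical DMSO day 6 libraries counted once. Replicate numbers were not used to pair the samples in the main fits. The deviations of same-numbered libraries correlated with r above 0.1 in 4 of 90 pairs in RA and 8 of 30 in total reads of dKO. They did so in 1 of 18 pairs in total reads of RBBP5–FKBP and 0 in the other fits. In total reads of dKO r ran from −0.0983 to 0.339, so some pairing there is not excluded. Depth per gene sets the precision: 3 reads of the total, the limit that a count of 0 allows, were at most 2.37 CPM. Comparisons that share 0 h or DMSO libraries are not independent.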

Additional observations from a re-analysis of the deposited data

Results flagged for a closer look

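The difference between lines in the 24 h change of T>C reads was tested as an interaction and passed for 8 pairs of gene and line. Between dKO and DPY30–mAID the values were −1.63 for Smad7, −2.53 for Nodal and −1.81 for Id1 on the log2 scale. Between RBBP5–FKBP and DPY30–mAID they were −2.60 for Id3, −1.81 for Smad7, −2.70 for Skil, −2.38 for Nodal and −2.35 for Id1. All of these are lower in the other line than in DPY30–mAID, and the median gene was lower too (−0.72 and −0.66).

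Id1 differed between auxin and DMSO in opposite directions at 2 times in RA: 0.31 on day 2 and −0.63 on day 6. Both auxin libraries lay above both DMSO libraries on day 2 and below the DMSO sample on day 6. The difference between the days was not tested.

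The Quant-seq libraries were not labelled, and their T>C reads were used in no comparison. Over them 215 of 24090 Id1 reads (0.892%, exact 95% binomial interval 0.778 to 1.02%) carried a T>C conversion, against 0.346% over all genes. Id3 (0.179%) and Nodal (0.0570%) were below that level. Against the 31.4 to 40.3% of Id1 in labelled cells at 0 h this is small.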

How the results depend on the processing

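The number of genes that passed was recomputed under each alternative: 339 counts stayed within 1.5 times the value in the report and 82 did not. Of the log2 changes that had passed, 767 refits kept the call, 227 lost it and 2 changed sign. Scaling to T>C reads changed sign for Id3 (0.141) and Nodal (0.575) in dKO at 48 h. It also gave 3 genes in DPY30–mAID at 24 h, 1 in RBBP5–FKBP at 8 h and 1 at 24 h, 0 in dKO at 4 h and 2 at 48 h, and 2 for the difference of RBBP5–FKBP at 24 h. Asking for a log2 change of at least 1 left 1 and 2 genes in the total reads of DPY30–mAID at 8 and 24 h, 0 in T>C reads of dKO at 4 h, 0 and 0 in its total reads at 24 and 48 h, 2 and 5 in RA with DMSO at 8 h and day 4, and 0, 1, 1 and 1 for auxin against DMSO on days 1, 2, 4 and 6. DESeq2 gave 1 gene in T>C reads of RBBP5–FKBP at 2 h, 1 in total reads of dKO at 4 h, and 0 and 3 for auxin on days 1 and 2. Without TMM there was 1 gene for the difference of dKO at 24 h, and 1, 2 and 3 for auxin at 8 h and on days 1 and 2. Without the filter there was 1 gene in total reads of DPY30–mAID at 8 h and 2 for auxin on day 1. The replicate block, whose numbers are not known to pair samples, left 1 gene for the difference of dKO at 24 h and moved no other count by over 1.5 times. The causes were not tested, except that a size limit and fewer samples lower counts by construction.

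With each library left out in turn, the counts ran as follows. T>C reads of DPY30–mAID had 0 to 1 at 8 h and 0 to 0 at 24 h, and its total reads 1 to 1 at 8 h. RBBP5–FKBP had 1 to 2 at 8 h and 3 to 5 at 24 h in T>C reads and 1 to 3 at 24 h in total reads. dKO had 0 to 1 at 4 h in T>C reads and 1 to 2 at 24 h in total reads. The differences at 24 h had 0 to 1 (dKO) and 3 to 5 (RBBP5–FKBP). RA with DMSO at 8 h had 3 to 5, and auxin had 0 to 1 at 8 h, 0 to 0 on day 1, 1 to 2 on day 2, 2 to 3 on day 4 and 4 to 6 on day 6, where this sets 1 library against 1. Of 99 calls, 59 passed in all and 11 in none of these fits. The 59 include the calls of day 6, where the 1 DMSO sample was left out of no fit, so those calls were not checked in this way. Depth limits Smad6, Bambi and, in DPY30–mAID, Lefty1 and Lefty2, which had few reads a library.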

Other observations

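The genes whose Quant-seq levels ran most like those of 2 members were taken by Pearson's r over the means of the 11 RA groups, on log2(CPM + 1), among 11415 genes. For Id1 they were Klhl5 (0.965), Itih5 (0.963) and Msrb3 (0.963), with Id2 at 0.960 and Id3 at 0.901. For Lefty1 they were Cstf3 (0.930), Dleu7 (0.905) and Dyrk4 (0.887), with Skil at 0.787 and Lefty2 at 0.775. The 11 points come from 1 course of 1 cell line, and these values are descriptions.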
